A study of Danio rerio with 370 samples.

Results

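Newborn neurons with high *tubb5* were compared with radial glia, the stem cells from which they arise, in the adult zebrafish forebrain. Cells of *her4.1:mcherry*;*elavl3:gfp* fish, adults that carry both transgenes, were dissociated without any treatment and sorted one by one from a dissection that held the telencephalon and the anterior diencephalon. The newborn neurons came from the NBN gate, with low mCherry and GFP, and the radial glia from the RG gate, with high mCherry and no GFP. Low mCherry marks protein inherited from a *her4.1*-expressing mother cell, so that the gate is a short-term label and not a permanent lineage mark. The full-length cDNA of each cell was sequenced with SMART-seq2, which counts reads and not molecules. Of 370 cells, 264 passed the quality filters, which kept 164 of 169 cells of the NBN gate and 73 of 171 cells of the RG gate. A cell of the NBN gate was counted as a newborn neuron when its level was at least 500 CPM (reads of a gene scaled to a common library total) for *tubb5* (ENSDARG00000037997), a beta-tubulin, and under 500 CPM for *EBF3* (ENSDARG00000100244), a transcription factor of a separate group of cells in the same gate. This rule chose 69 newborn neurons, which were set against all 73 radial glia. The cells came from 6 fish, with 19, 9, 17, 9 and 11 newborn neurons from fish 1 to 5 and 4 from a sixth, batch bfx811 (fish bfx811), against 7, 11, 5, 15, 12 and 23 radial glia from the same fish.

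Radial glia of the adult zebrafish telencephalon line the ventricle, keep their somata there and remain neurogenic throughout life. Notch signalling holds them in the progenitor state through Her and Hes repressors, which block proneural transcription factors. A daughter cell that becomes a neuron loses this input, leaves the cell cycle, turns on a cascade of neuronal transcription factors and rebuilds its cytoskeleton to grow an axon and dendrites.

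Both genes of the rule are described and not tested. In the reads summed per fish, *tubb5* had 5674 CPM at the lowest, a median of 8555 CPM and 11127 CPM at the highest in newborn neurons, against 0.543, 55.4 and 372 CPM in radial glia. In single cells it ranged from 509 to 18125 CPM in newborn neurons and from 0 to 1970 CPM in radial glia. The limit fell in a thinly filled range, since the nearest NBN gate cells had 509.2 and 634.8 CPM above it and 445.1 and 368.2 CPM below it. For *EBF3*, the nearest cells had 283.2 and 7.359 CPM below the limit and 507.6 and 1690 CPM above it. The same 2 limits would also take 7 cells of the RG gate, which stayed among the radial glia. *her4.1* (ENSDARG00000056732) and *ELAVL3* (ENSDARG00000014420) drive the reporters used for sorting, so they check the gates and are no finding. *her4.1* had 0, 1.67 and 69.6 CPM (lowest, median and highest fish) in newborn neurons and 2948, 3922 and 7534 CPM in radial glia. *ELAVL3* had 1643, 1836 and 2285 CPM in newborn neurons and 0, 0.569 and 288 CPM in radial glia, with a read in 69 of 69 newborn neurons and 8 of 73 radial glia.

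**Figure D1:**
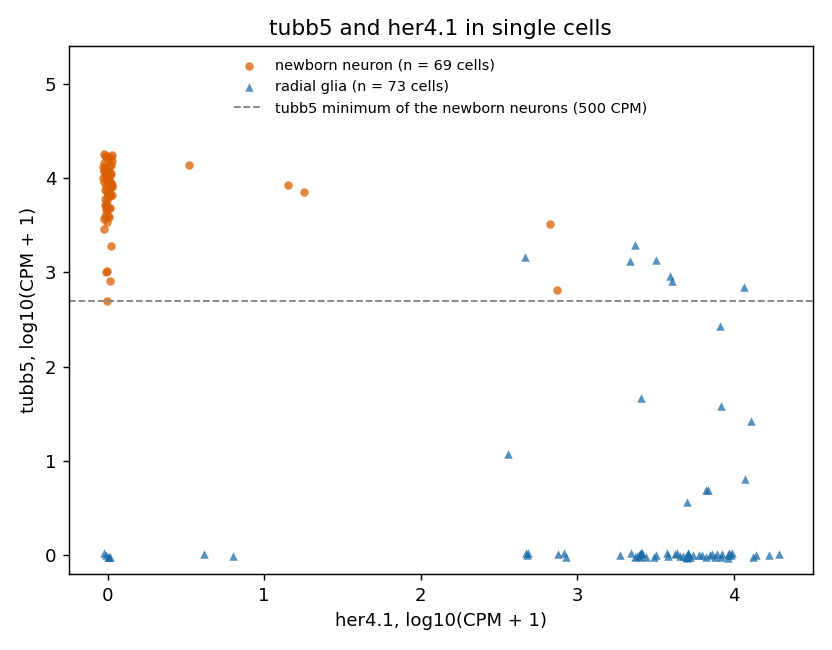
Level of *tubb5* (vertical axis) against *her4.1* (horizontal axis) in each of 69 newborn neurons (circles) and 73 radial glia (triangles), both as log10(CPM + 1) of the cell's reads, with a small random shift of each point; the dashed line is the 500 CPM minimum of *tubb5*. The newborn neurons lie above the line by the rule, and 5 of them had a *her4.1* read, against 68 of 73 radial glia.

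The sums held 431826 to 7198632 reads in newborn neurons, the lowest being the 4 cells of fish bfx811, and 1539845 to 5473055 reads in radial glia. A newborn neuron had a median of 342855 reads and a radial glial cell 211548, whereas after thinning each cell to 20000 reads the median number of genes was 1312 and 1292. Of 21 microglia and leukocyte genes, 19 were at 0 in the newborn neurons. Their summed level was 0 to 1.81 CPM in the sums of newborn neurons and 0 to 4423 CPM in those of radial glia, and 1 RG gate cell carried 51030 CPM of them. The summed level of 7 erythrocyte genes was 0 to 17 CPM in newborn neurons and 0 to 417 CPM in radial glia. For 17 endothelial and mural genes it was 0 to 114 CPM in newborn neurons and 33.8 to 270 CPM in radial glia, for 9 ependymal genes 0 to 32.6 CPM in newborn neurons and 61.9 to 626 CPM in radial glia, and for 15 genes of the oligodendrocyte lineage 34.7 to 454 CPM in newborn neurons and 0 to 473 CPM in radial glia. The endothelial and mural list includes the Notch receptor *NOTCH3*, its only tested gene. The level of *NOTCH3* in radial glia (below) was close to that of the whole list, so this sum is no measure of vascular cells. Of these 5 lists, 4 genes had enough reads to be tested and 0 passed in edgeR. An unadjusted p under 0.05 was found for 2 of them, against 947 of all 5979 genes tested. In DESeq2, 2 of them were lower, against 724 of all genes tested. When the 5 RG gate cells with at least 2000 CPM of the microglia genes were left out, 174 of the 214 genes that were lower and 167 of the 174 that were higher in newborn neurons (below) passed again. The part of the other cell types in the result was not tested.

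Between newborn neurons and radial glia, 388 of the 5979 genes tested (6.49%) passed an adjusted p of 0.05 in edgeR's quasi-likelihood test with the fish as a block. Of these, 174 were higher in newborn neurons (2.91%) and 214 were lower (3.58%). In 553 genes (9.25%) the 6 sums of newborn neurons and the 6 sums of radial glia did not overlap. The same sums gave 1050 higher and 724 lower genes in DESeq2, and these included each of the 388 genes. Leaving out fish 3 gave 113 higher genes. The median log2 fold change over all genes tested was 0.50, but -0.089 without fish 1, -0.143 without fish 3 and 1.175 without fish bfx811. Because NBN gate cells were chosen by *tubb5*, genes that rise and fall with *tubb5* inside that gate were favoured by the choice. Many of the genes below had no read at all in several sums, and the fitted fold change of such a gene depends on the small count that edgeR adds. A fitted log2 fold change is therefore printed only for genes with reads in all 12 sums, and for genes with no read in a whole group the limit that 3 reads in that group would set. Unless a fish is named, the calls printed for single genes held without each fish in turn, which was true of 86 of 105 genes examined in this way.

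The genes of radial glia identity were lower in newborn neurons. Of 38 identifiers on this list, 30 had enough reads to be tested, 21 of these were lower and 0 were higher. This share was 70%, against 6.49% of all genes. Some members, such as *selenop* and *fgfbp3*, are markers that the study found in these same cells, so the counts are a description. The median fitted log2 fold change of the 30 was -11.18. On pooled reads with counts under 3 set to 3, it was -7.42, against 0.24 for all genes. Their summed level was 3022 to 4264 CPM in newborn neurons and 32273 to 100628 CPM in radial glia.

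*FABP7* (ENSDARG00000007697), a fatty acid binding protein and a classical marker of radial glia, had 81.1, 164 and 254 CPM (lowest, median and highest fish) in newborn neurons, against 7786, 11161 and 18154 CPM in radial glia. The groups did not overlap, and the log2 fold change was -6.26 (SE 0.471, adjusted p = 7.58e-12, edgeR, lower in 6 of 6 fish). A read of *FABP7* was nevertheless found in 32 of 69 newborn neurons, and in 31 of them after thinning to 20000 reads, against 71 of 73 radial glia at either depth. The glutamate transporter *SLC1A2* (ENSDARG00000102453) had 6.18, 80.8 and 197 CPM in newborn neurons and 3352, 9640 and 16422 CPM in radial glia, a log2 fold change of -7.54 (SE 0.781, adjusted p = 1.02e-08, edgeR) that ran from -8.34 without fish 1 to -6.78 without fish 5. These transcripts, abundant in the glia, were also read in the newborn neurons, at a level far below that of the glia. The source of these reads was not tested.

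Other glial genes were at or near 0 in the newborn neurons. *GJA1* (ENSDARG00000041799), the gap junction protein known in fish as cx43, had 3 reads in all newborn neurons together, or at most 0.515 CPM in a fish, against 1618, 2606 and 4260 CPM in radial glia (adjusted p = 7.58e-12, edgeR). The selenoprotein *selenop* likewise had 3 reads in newborn neurons, against 446, 1930 and 4320 CPM in radial glia (adjusted p = 7.58e-12, edgeR). For *GJA1* and *selenop* the groups were therefore separated by a wide gap in which no sum fell.

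The GABA transporter *SLC6A11* had no read in newborn neurons and 118, 202 and 406 CPM in radial glia, which made it at least 1727-fold lower (3 reads over the group, adjusted p = 0.000195, edgeR). *SLC1A3*, a further glutamate transporter, *S100B*, a calcium-binding protein of glia, *ATP1B4*, *HEPACAM*, *SLC4A4*, *CD82*, *PTN*, *LIX1*, *fgfbp3*, *GFAP* and *si:ch211-251b21.1* were lower as well (adjusted p from 1.26e-11 for *ATP1B4* to 0.000124 for *GFAP*, edgeR). *SOX3*, a transcription factor of neural progenitors, had 0, 0.129 and 174 CPM in newborn neurons and 190, 395 and 610 CPM in radial glia (adjusted p = 0.0047, edgeR). The related *SOX2* had 0, 25.4 and 165 CPM in newborn neurons and 80.9, 402 and 610 CPM in radial glia (adjusted p = 0.0368, edgeR), with overlap, and did not pass when fish 4 (adjusted p = 0.0687) or fish bfx811 (adjusted p = 0.0828) was left out.

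Copies of *MDK* differed. Of the genes that share the symbol *MDK*, for the heparin-binding growth factor midkine, ENSDARG00000036036 had at most 4.33 CPM in newborn neurons and 1053, 1504 and 2531 CPM in radial glia (adjusted p = 3.14e-10, edgeR). ENSDARG00000020708 had 289, 481 and 739 CPM in newborn neurons and 1124, 1457 and 2913 CPM in radial glia, which did not pass (log2 fold change -1.76, SE 0.593, adjusted p = 0.0732, edgeR), although the values did not overlap. The glutamine synthetase *GLUL* ENSDARG00000099776 had 0, 345 and 926 CPM in newborn neurons and 2679, 7679 and 11580 CPM in radial glia (adjusted p = 0.00012, edgeR).

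A few genes on the list were not lower. *VIM* ENSDARG00000010008, which encodes the intermediate filament vimentin, had 259, 956 and 1799 CPM in newborn neurons and 241, 289 and 542 CPM in radial glia (adjusted p = 0.516, edgeR, the higher value in newborn neurons in 6 of 6 fish). The proteoglycan gene *cspg5a* had 502, 850 and 978 CPM in newborn neurons and 168, 210 and 536 CPM in radial glia (adjusted p = 0.308, edgeR). The values of both genes overlapped between the groups.

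**Figure D2:**
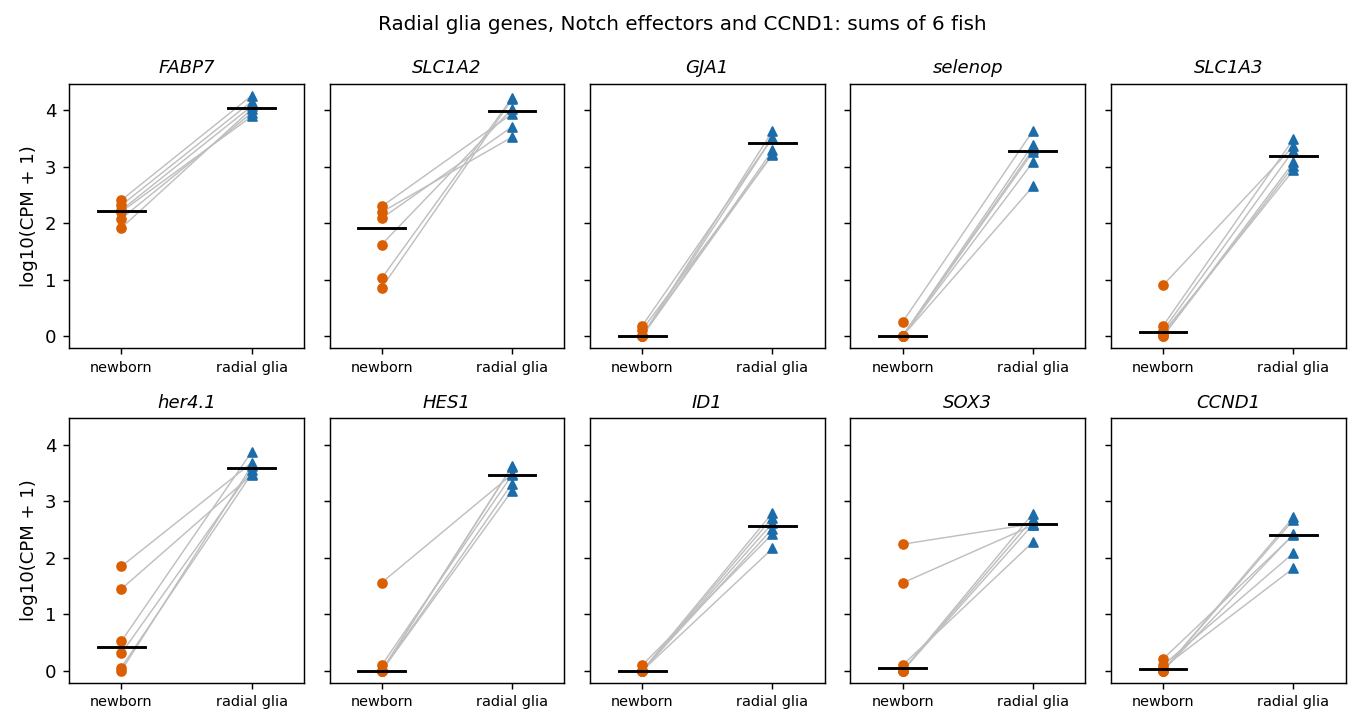
Levels of 10 genes that were lower in newborn neurons, as log10(CPM + 1) of the reads summed per fish. Each point is 1 of 6 fish, with newborn neurons (circles) left of radial glia (triangles), grey lines join the sums of a fish and black bars are medians; in *GJA1*, *selenop*, *ID1* and *CCND1* the newborn neurons lie at or near 0 in every fish.

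Genes that act downstream of Notch, with the Id genes, were lower in newborn neurons. Of 22 identifiers of Notch effectors and Id factors, 16 were tested, 11 were lower and 0 were higher in edgeR, with a median fitted log2 fold change of -8.66 and, on pooled reads with the 3-count floor, of -5.61. Calls in edgeR made up 68.8% of these 16, against 6.49% of all genes. In DESeq2, 1 of the 16 was higher and 13 were lower, against 1050 higher and 724 lower of all 5979 genes. The calls include *her4.1*, whose promoter drives the sorted mCherry, so the sort set the direction of this list in part and the counts are a description. Their summed level was 412 to 1604 CPM in newborn neurons and 13520 to 41387 CPM in radial glia. Beside *her4.1*, the calls held *her4.2*, *her4.3*, *her4.4*, *her4.5*, *her15.1* and *her15.2*, copies of a Hes5-type repressor that are close enough in sequence for reads to be lost or shared between them. *her4.2* had 0, 3.42 and 762 CPM in newborn neurons and 3928, 6113 and 10392 CPM in radial glia (adjusted p = 4.65e-06, edgeR). *her15.1* had 0, 2.21 and 47.7 CPM in newborn neurons and 400, 1670 and 2789 CPM in radial glia (adjusted p = 6.69e-06, edgeR).

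*HES1* (ENSDARG00000006514), a Hes repressor named by the rule for the largest changes and not by this list, had 0 CPM in 4 fish, 0.251 CPM in fish 1 and 35.5 CPM in fish 2 in newborn neurons. In radial glia it had 1544, 2983 and 4186 CPM, and the groups did not overlap (adjusted p = 7.43e-10, edgeR). It was read in 2 of 69 newborn neurons and 57 of 73 radial glia. *her8a* had no read in newborn neurons and 70.9, 143 and 204 CPM in radial glia, which made it at least 1062-fold lower (700-fold without fish 3, adjusted p = 0.00521, edgeR). *her2* had 0, 0 and 12.5 CPM in newborn neurons and 0, 564 and 2248 CPM in radial glia (adjusted p = 0.000108, edgeR), and had too few reads to be tested without fish 3.

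The Id genes, whose products bind and block bHLH proteins, were divided. *ID1* had 1 read in all newborn neurons, against 146, 371 and 627 CPM in radial glia (adjusted p = 1.52e-06, edgeR). *ID3* had 0, 10.3 and 162 CPM in newborn neurons and 181, 321 and 647 CPM in radial glia (adjusted p = 0.0276, edgeR), and did not pass when fish 3 (adjusted p = 0.0633) or fish 4 (adjusted p = 0.0924) was left out. *ID2* (ENSDARG00000055283) had 46.2, 294 and 464 CPM in newborn neurons and 66.2, 160 and 477 CPM in radial glia (adjusted p = 0.972, edgeR).

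Of 25 identifiers of Notch receptors, ligands and modifiers, 12 were tested, 1 was lower and 0 were higher in edgeR, a share near the 6.49% of all genes. An unadjusted p under 0.05 was found for 6 of these 12, against 947 of all 5979 genes. DESeq2 called 3 higher and 7 lower of these 12, against 1050 higher and 724 lower of all 5979 genes. The gene that passed was the Delta ligand *DLL1* ENSDARG00000010791, which was matched to the list after its values were seen. It had 0, 14.1 and 47.4 CPM in newborn neurons and 211, 757 and 1001 CPM in radial glia, with no overlap (adjusted p = 0.00262, edgeR). Its second copy, ENSDARG00000020219, had 0, 0 and 62.4 CPM in newborn neurons and 0, 91.8 and 232 CPM in radial glia (adjusted p = 0.398, edgeR). The receptor *NOTCH3* had 0, 0.251 and 111 CPM in newborn neurons and 33.8, 205 and 248 CPM in radial glia (adjusted p = 0.0613, edgeR, the lower value in newborn neurons in 6 of 6 fish). *LFNG*, a glycosyltransferase that modifies Notch, had 0, 124 and 219 CPM in newborn neurons and 4.35, 621 and 1115 CPM in radial glia (adjusted p = 0.293, edgeR). The ligand *dll4* had 0, 94.6 and 234 CPM in newborn neurons and 0, 0 and 44.4 CPM in radial glia (adjusted p = 0.189, edgeR). The values of *NOTCH3*, *LFNG* and *dll4* overlapped between the groups. *NOTCH3* passed without fish 1 (adjusted p = 0.0307), *LFNG* without fish 3 (adjusted p = 0.0429) and *dll4* without fish bfx811 (adjusted p = 0.0442, edgeR). None of them passed when any other single fish was left out.

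Of 40 identifiers of cell cycle genes, 16 were tested and 18.8% of these passed, against 6.49% of all genes. In newborn neurons 2 were lower, and the 1 that was higher was *STMN1* ENSDARG00000033655, a microtubule protein that is described with the cytoskeleton. It entered this list by its symbol, which 2 copies share. The other copy, ENSDARG00000004169, did not pass, with a mean of 9.77 CPM in newborn neurons and 74.5 CPM in radial glia (adjusted p = 0.854, edgeR). *CCND1*, a G1 cyclin, had 0, 0.0695 and 0.619 CPM in newborn neurons, from 4 reads in all, against 64.6, 257 and 523 CPM in radial glia (adjusted p = 8.62e-05, edgeR). *PCNA*, the sliding clamp of DNA replication, had 0, 41.5 and 142 CPM in newborn neurons and 131, 382 and 3429 CPM in radial glia (adjusted p = 0.0218, edgeR), but the groups overlapped and the gene did not pass when fish 2 was left out (adjusted p = 0.262). *BTG2*, an antiproliferative gene, had 33.4, 263 and 586 CPM in newborn neurons and 470, 845 and 1440 CPM in radial glia (adjusted p = 0.168, edgeR). When radial glia with a *ccnd1* read were left out, 42 radial glia remained and 258 genes were higher and 143 lower, of which 162 and 137 were among the calls above.

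Some transcription factors of neuronal fate were higher in newborn neurons. Of 46 identifiers, 27 were tested, 7 were higher and 1 was lower, with a median fitted log2 fold change of 7.29 and, with the 3-count floor, of 3.46. The calls made up 29.6% of the tested genes of the list. Over all genes the share was 6.49% and the medians were 0.50 and 0.24. In DESeq2, 19 of the 27 were higher and 2 were lower, against 1050 higher and 724 lower of all 5979 genes. An unadjusted p under 0.05 was found for 18 of the 27, against 947 of all genes. The summed level of the list was 6885 to 9161 CPM in newborn neurons and 918 to 3196 CPM in radial glia. The one that was lower in edgeR was the proneural gene *ascl1a*, with 0, 0.0695 and 66.8 CPM in newborn neurons and 0, 263 and 608 CPM in radial glia (adjusted p = 0.0327, edgeR). The values of *ascl1a* overlapped, and the gene did not pass when fish 2, 4, 5 or bfx811 was left out (adjusted p = 0.0827 to 0.169).

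Of the NeuroD genes, bHLH factors of neuronal differentiation, *NEUROD1* and *NEUROD6* were close to absent from radial glia. *NEUROD4* did not pass, with a mean of 87.6 CPM in newborn neurons and 42.1 CPM in radial glia (adjusted p = 0.534, edgeR). *NEUROD1* had 377, 701 and 1146 CPM in newborn neurons, against 0, 0 and 76.8 CPM in radial glia, with no overlap (adjusted p = 2.09e-05, edgeR). *NEUROD6* ENSDARG00000020794 had 221, 371 and 630 CPM in newborn neurons and no read in radial glia, which made it at least 2119-fold higher (adjusted p = 7.35e-06, edgeR). Its other copy, ENSDARG00000040008, had 53.1, 528 and 1054 CPM in newborn neurons and 0, 0 and 60.7 CPM in radial glia, an overlap of single fish (adjusted p = 7.21e-05, edgeR). Although every fish was higher for *NEUROD1* and both copies of *NEUROD6*, the cells were not alike. *NEUROD1* was read in 42 of 69 newborn neurons (40 after thinning) and *NEUROD6* ENSDARG00000020794 in 31 (29 after thinning).

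*BHLHE22*, a bHLH repressor of neurons, had 223, 405 and 1024 CPM in newborn neurons and a single read in radial glia (adjusted p = 4.12e-07, edgeR). The zinc finger gene *PRDM8* had 93.8, 332 and 538 CPM in newborn neurons and no read in radial glia, which made it at least 2123-fold higher (1352-fold without fish 4, adjusted p = 3.08e-05, edgeR). *TBR1*, a T-box factor of glutamatergic neurons, had 523 to 859 CPM in newborn neurons of fish 1 to 5 and 0 CPM in those of fish bfx811, against 0, 0.519 and 41 CPM in radial glia (adjusted p = 0.00381, edgeR, higher in 5 of 6 fish). *nhlh2*, a bHLH gene, had 77.6, 189 and 482 CPM in newborn neurons and 0, 0 and 38.7 CPM in radial glia (adjusted p = 0.0307, edgeR), but did not pass when fish 2, 3, 4 or 5 was left out (adjusted p = 0.0669 to 0.133). *EOMES* ENSDARG00000006640, another T-box factor, had 0, 676 and 1471 CPM in newborn neurons and 0, 41.5 and 201 CPM in radial glia (adjusted p = 0.125, edgeR), with overlap. *SOX4* ENSDARG00000004588 had 808, 1177 and 1490 CPM in newborn neurons and 0, 241 and 618 CPM in radial glia. It did not pass (adjusted p = 0.15, edgeR), although the groups did not overlap.

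Newborn neurons carried reads of glutamatergic or GABAergic lineage genes in nearly every cell. Of the 69 newborn neurons, 56 had a read of *NEUROD1*, *NEUROD2*, *NEUROD6*, *TBR1*, *EOMES*, *SLC17A6* or *SLC17A7* and none of *DLX1*, *DLX2*, *DLX5*, *DLX6*, *GAD1*, *GAD2* or *SLC32A1*. The reverse was found in 7 cells, both kinds in 5 and neither in 1. After thinning to 20000 reads these numbers were 58, 9, 1 and 1. With all reads, cells with the GABAergic kind alone came from fish 1, 2, 4 and 5, and after thinning from fish 3 as well. Of the 73 radial glia, 12 had reads of the glutamatergic kind alone, 5 of the GABAergic kind alone and 56 of neither (8, 2 and 63 after thinning). These classes are counts of cells with a read and were not tested. *EOMES* counts as glutamatergic here, whereas the study placed *eomesa* among its markers of general neurogenic fate.

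Of 28 identifiers of RNA-binding proteins, 16 were tested, 3 were higher in newborn neurons and 0 were lower (median fitted log2 fold change 1.92, and 1.26 with the 3-count floor). This share was 18.8%, against 6.49% of all genes. One of the 3 was *ELAVL3*, whose promoter drives the sorted reporter. The splicing regulator *CELF4* had 4.38, 163 and 373 CPM in newborn neurons and 0, 0 and 34.9 CPM in radial glia (adjusted p = 0.0124, edgeR), with overlap, and did not pass when fish 3 was left out (adjusted p = 0.108). *celf5a* passed (adjusted p = 0.0293, edgeR), but not when any fish other than fish 4 was left out (adjusted p = 0.0604 to 0.122). The progenitor gene *MSI1* had 0, 86 and 139 CPM in newborn neurons and 294, 445 and 706 CPM in radial glia (adjusted p = 0.124, edgeR), with no overlap.

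The cytoskeleton held the most calls among the lists of neuronal genes. Its share of 48.4% was close to that of actin, membrane and outgrowth genes (46.4%) and of ion channels and transmitter receptors (45.5%). The share over all genes was 6.49%. Of 39 identifiers of tubulins and microtubule proteins, which do not include *tubb5*, 31 were tested, 15 were higher in newborn neurons and 0 were lower. The median fitted log2 fold change was 3.61, and 2.14 with the 3-count floor. Their summed level was 30346 to 39244 CPM in newborn neurons and 2460 to 6660 CPM in radial glia. The list holds markers that the study found in these same cells, such as *tuba2*, so its counts are a description.

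*STMN1* (ENSDARG00000033655), a stathmin that binds free tubulin, was the most abundant of them, with 7339, 9157 and 11231 CPM in newborn neurons and 305, 720 and 1170 CPM in radial glia (log2 fold change 3.74, SE 0.469, adjusted p = 4.12e-07, edgeR). It was read in 69 of 69 newborn neurons and 50 of 73 radial glia. The groups did not overlap, and the radial glia of every fish held the gene at a lower level. The same was true of the alpha-tubulin *TUBA1A*, which had 2225, 3185 and 3687 CPM in newborn neurons and 92.7, 230 and 512 CPM in radial glia (log2 fold change 3.61, adjusted p = 5.41e-05, edgeR). *tuba1c* had 2990, 3252 and 3963 CPM in newborn neurons and 117, 175 and 477 CPM in radial glia (log2 fold change 4.08, adjusted p = 4.65e-06, edgeR). The second copy of *STMN1*, ENSDARG00000004169, did not pass and had the lower mean in newborn neurons (adjusted p = 0.854, edgeR).

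Other members had few reads or none in radial glia. *tuba2* had 688, 1489 and 2192 CPM in newborn neurons and 0, 0.414 and 33.3 CPM in radial glia (adjusted p = 4.04e-07, edgeR). *STMN2* ENSDARG00000033234 had 854, 1906 and 3291 CPM in newborn neurons and at most 0.565 CPM in radial glia, from 6 reads in all (adjusted p = 6.35e-11, edgeR). *STMN4* ENSDARG00000043932 had 160, 376 and 572 CPM in newborn neurons and no read in radial glia, which made it at least 1885-fold higher (1239-fold without fish 5, adjusted p = 2.06e-05, edgeR). The second copies of *STMN2* and *STMN4* were higher as well (adjusted p = 3.23e-07 and 7.18e-09, edgeR).

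Of the microtubule-associated proteins, *maptb*, a tau gene, had 694, 1199 and 2068 CPM in newborn neurons and 11.4, 79.3 and 158 CPM in radial glia (log2 fold change 4.09, SE 0.98, adjusted p = 0.000446, edgeR). *MAP1B* had 301, 404 and 576 CPM in newborn neurons and 0 CPM in 5 fish and 105 CPM in fish 1 in radial glia (adjusted p = 0.000102, edgeR). *DCLK1* ENSDARG00000104664, a doublecortin-like kinase, had 320, 455 and 658 CPM in newborn neurons and at most 24.6 CPM in radial glia (adjusted p = 5.41e-05, edgeR), and *DPYSL5* ENSDARG00000011141, of the collapsin response mediator family, had 375, 531 and 1716 CPM in newborn neurons and 0, 47.2 and 73.7 CPM in radial glia (adjusted p = 0.0111, edgeR). *tubb2b* and *tubb4b*, beta-tubulins like *tubb5*, had smaller differences (log2 fold changes 2.47 and 1.62, adjusted p = 0.0389 and 0.047, edgeR), and both calls were lost without fish 1, fish 3 or fish 5 (adjusted p = 0.0851 to 0.295), that of *tubb2b* also without fish 4 (adjusted p = 0.0589). *DPYSL3* (adjusted p = 0.0373) lost its call without fish 1, 2, 3 or 5 (adjusted p = 0.064 to 0.134).

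Part of the actin, membrane and outgrowth genes were higher in newborn neurons. Of 33 identifiers, 28 were tested, 13 were higher in newborn neurons and 0 were lower, with a median fitted log2 fold change of 3.0 and, with the 3-count floor, of 2.25. The study had named *CD99L2*, *ppp1r14ba* and *cnp* as markers from these same cells, so these counts are a description. *CD99L2*, a membrane glycoprotein, had 2470, 3273 and 5771 CPM in newborn neurons and 46.1, 185 and 360 CPM in radial glia (log2 fold change 4.42, SE 0.598, adjusted p = 1.75e-06, edgeR). *MARCKS* ENSDARG00000008803, an actin-binding protein of the cell membrane, had 2050, 2653 and 2953 CPM in newborn neurons and 55.9, 349 and 652 CPM in radial glia (log2 fold change 3.13, adjusted p = 0.00106, edgeR, and 2.51 without fish 3). *basp1*, a growth cone protein, had 1093, 1344 and 3070 CPM in newborn neurons and 35.6, 148 and 339 CPM in radial glia (log2 fold change 3.41, adjusted p = 0.000861, edgeR). For *CD99L2*, *MARCKS* and *basp1* the highest radial glia sum lay well under the lowest newborn neuron sum.

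*rtn1a*, a reticulon of the endoplasmic reticulum, had 2022, 2353 and 3212 CPM in newborn neurons and 60.3, 126 and 386 CPM in radial glia (log2 fold change 4.07, adjusted p = 1.23e-05, edgeR). *ppp1r14ba*, which encodes a phosphatase inhibitor, had 952, 1311 and 1607 CPM in newborn neurons and 0, 0 and 13.8 CPM in radial glia (adjusted p = 8.44e-08, edgeR), with a read in 63 of 69 newborn neurons and 2 of 73 radial glia. *tmsb2*, a beta-thymosin that binds actin monomers, had 580, 952 and 1315 CPM in newborn neurons and 3 reads in radial glia (adjusted p = 1.14e-08, edgeR). *rtn1b*, *cnp*, *FSCN1*, which bundles actin, and the G protein subunit *GNG3* were also higher (adjusted p = 0.000217, 0.00639, 0.000195 and 2.74e-08, edgeR). *tmsb4x*, *NRN1* and *RAC3* ENSDARG00000090062 passed (adjusted p = 0.0146, 0.0115 and 0.0146, edgeR) but lost the call without at least 1 fish. For *tmsb4x* this was without fish 1, 3 or 5 (adjusted p = 0.0595 to 0.125), for *NRN1* without fish bfx811 (adjusted p = 0.0709) and for *RAC3* without fish 4 (adjusted p = 0.0585).

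The most abundant actin gene did not pass. *actb2* had 10073, 11110 and 14135 CPM in newborn neurons and 4330, 5529 and 7939 CPM in radial glia (log2 fold change 0.91, adjusted p = 0.124, edgeR), although the groups did not overlap. *marcksl1b* had 2630, 3159 and 3839 CPM in newborn neurons and 822, 1188 and 1754 CPM in radial glia (log2 fold change 1.37, adjusted p = 0.0847, edgeR), also with no overlap. Both genes passed when fish bfx811, with the fewest newborn neuron reads, was left out (adjusted p = 0.0138 for *actb2* and 0.0385 for *marcksl1b*, edgeR). Neither passed without any other fish (adjusted p = 0.149 to 0.647).

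**Figure D3:**
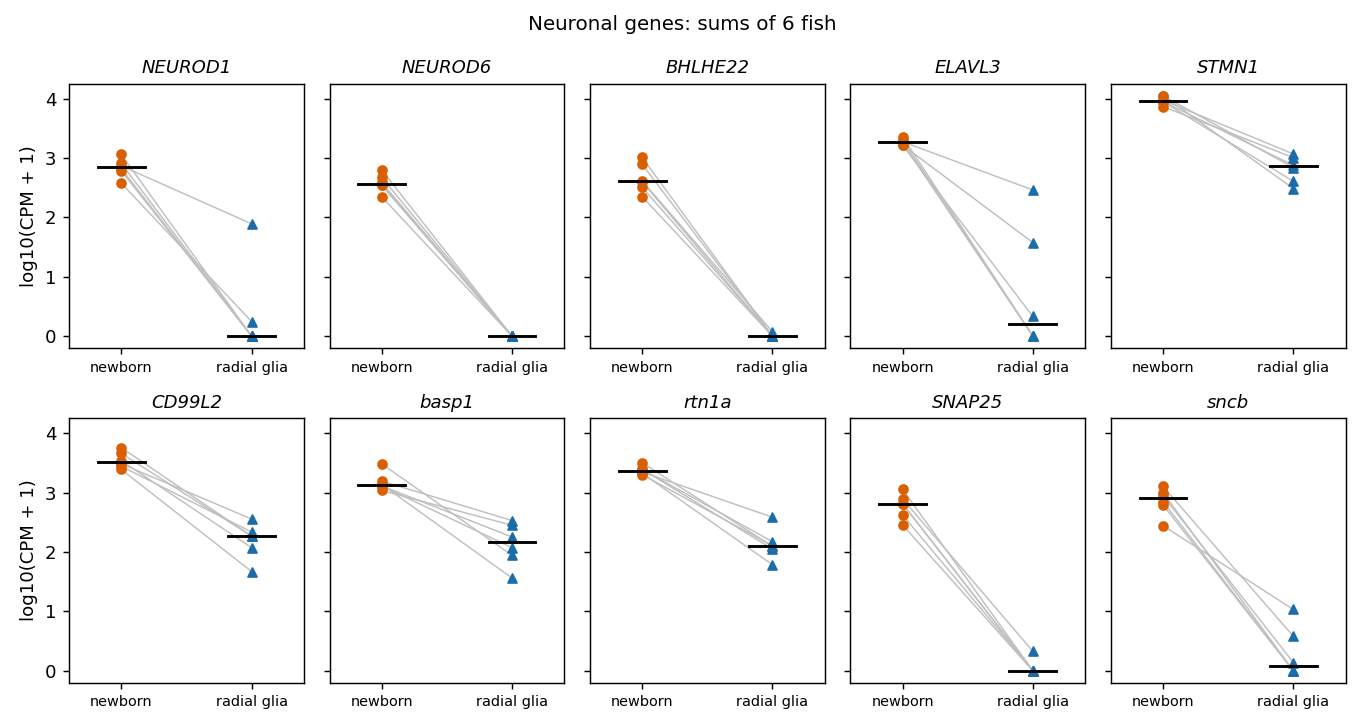
Levels of 10 genes that were higher in newborn neurons, as log10(CPM + 1) of the reads summed per fish, drawn as for the glial genes with newborn neurons left of radial glia. The *NEUROD6* panel shows ENSDARG00000020794, which had no read in radial glia, whereas *STMN1*, *CD99L2*, *basp1* and *rtn1a* were read in the radial glia of every fish.

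Genes of the synapse and of excitability were read in these neurons. Of 37 identifiers of synaptic vesicle and transmitter genes, 16 were tested, 6 were higher and 0 were lower (median fitted log2 fold change 7.18, and 4.37 with the 3-count floor). Of 47 identifiers of ion channels and transmitter receptors, 11 were tested, 5 were higher and 0 were lower (9.26 and 4.70). The shares of the 2 lists were 37.5% and 45.5%, against 6.49% of all genes. A gene high in newborn neurons alone could enter the test through that group, so these counts and medians are a description. *SNAP25* (ENSDARG00000020609), a protein of the vesicle fusion complex, had 286, 652 and 1143 CPM in newborn neurons and 4 reads in radial glia (adjusted p = 3.06e-07, edgeR). The synuclein *sncb* had 278, 802 and 1278 CPM in newborn neurons and at most 9.8 CPM in radial glia (adjusted p = 6.25e-06, edgeR). The synaptotagmin *SYT4* had 643 to 1035 CPM in newborn neurons of fish 1 to 5 and 0 CPM in those of fish bfx811, against 0, 0.759 and 53.9 CPM in radial glia (adjusted p = 0.00422, edgeR). *SYN2*, a synapsin, also passed (adjusted p = 0.00403, edgeR).

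Among channels and receptors, the neuronal sodium pump subunit *atp1a3a* had 182, 616 and 912 CPM in newborn neurons and at most 1.3 CPM in radial glia (adjusted p = 1.75e-06, edgeR). The AMPA receptor subunit *GRIA2* ENSDARG00000052765 had 166, 309 and 363 CPM in newborn neurons and 0, 0 and 32.9 CPM in radial glia (adjusted p = 0.00258, edgeR), and *atp1b3a* also passed (adjusted p = 0.0103, edgeR). The second *GRIA2* copy, ENSDARG00000070173, passed narrowly (adjusted p = 0.0302, edgeR), and did not pass when any fish but fish 4 was left out (adjusted p = 0.051 to 0.102).

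Of 54 identifiers of axon guidance and adhesion genes, 27 were tested, 1 was higher and 0 were lower in edgeR, a share near the 6.49% of all genes. An unadjusted p under 0.05 was found for 7 of the 27, against 947 of all 5979 genes. DESeq2 called 7 higher and 3 lower, against 1050 higher and 724 lower of all genes. The call in edgeR was the secreted semaphorin *sema3aa*, with 4.62, 75.7 and 456 CPM in newborn neurons and no read in radial glia (at least 538-fold higher, and 310-fold without fish 3, adjusted p = 0.0225, edgeR). It was lost without fish 3 (adjusted p = 0.0845) and without fish bfx811 (adjusted p = 0.101). The adhesion gene *l1camb* had 35.3, 73.1 and 138 CPM in newborn neurons and 0, 0 and 7.06 CPM in radial glia (adjusted p = 0.0993, edgeR).

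In the metabolic and general lists the share of calls in edgeR was near the 6.49% of all genes or below it. Of all 5979 genes, 947 had an unadjusted p under 0.05, and DESeq2 called 1050 higher and 724 lower. Of 30 identifiers of sterol and fatty acid metabolism, 20 were tested and 0 passed, with 4 at an unadjusted p under 0.05 and 1 higher and 10 lower in DESeq2. Their median fitted log2 fold change was -3.63, and -1.51 with the 3-count floor, against 0.50 and 0.24 for all genes. Of 33 identifiers of glycolysis, 16 were tested and 1 was lower, the aldolase *ALDOC* (96.1, 256 and 623 CPM in newborn neurons, against 478, 1331 and 3063 CPM in radial glia, adjusted p = 0.0302, edgeR), whose call was lost without fish 3, 4, 5 or bfx811 (adjusted p = 0.0533 to 0.149). On the glycolysis list, 5 of the 16 had an unadjusted p under 0.05, and DESeq2 called 2 higher and 4 lower. Of 23 identifiers of BAF chromatin remodelling subunits, 19 were tested and 0 passed, with 3 at an unadjusted p under 0.05 and 7 higher and 1 lower in DESeq2. Of 84 ribosomal protein identifiers, 82 were tested and 0 passed in edgeR or DESeq2, with 0 at an unadjusted p under 0.05, and their median fitted log2 fold change was -0.32.

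Immediate early and heat shock genes were lower in part. Of 30 identifiers on this list, 25 were tested, 4 were lower and 0 were higher, a share of 16% against 6.49% of all genes. *FOS* had 451, 785 and 1342 CPM in newborn neurons and 3110, 6515 and 9947 CPM in radial glia (log2 fold change -3.03, SE 0.438, adjusted p = 5.4e-06, edgeR). The transcription factor *egr1* had 0, 2.39 and 4.9 CPM in newborn neurons and 195, 844 and 1459 CPM in radial glia (adjusted p = 1.63e-05, edgeR), and the phosphatase *DUSP1* and the small heat shock gene *HSPB1* were lower too (adjusted p = 0.00323 and 1.19e-05, edgeR). By contrast *hsp70l*, an inducible heat shock gene with near-identical copies, had 4539, 19366 and 25302 CPM in newborn neurons and 7453, 11757 and 25571 CPM in radial glia (adjusted p = 0.908, edgeR), so that both groups were high and overlapped.

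**Figure D4:**
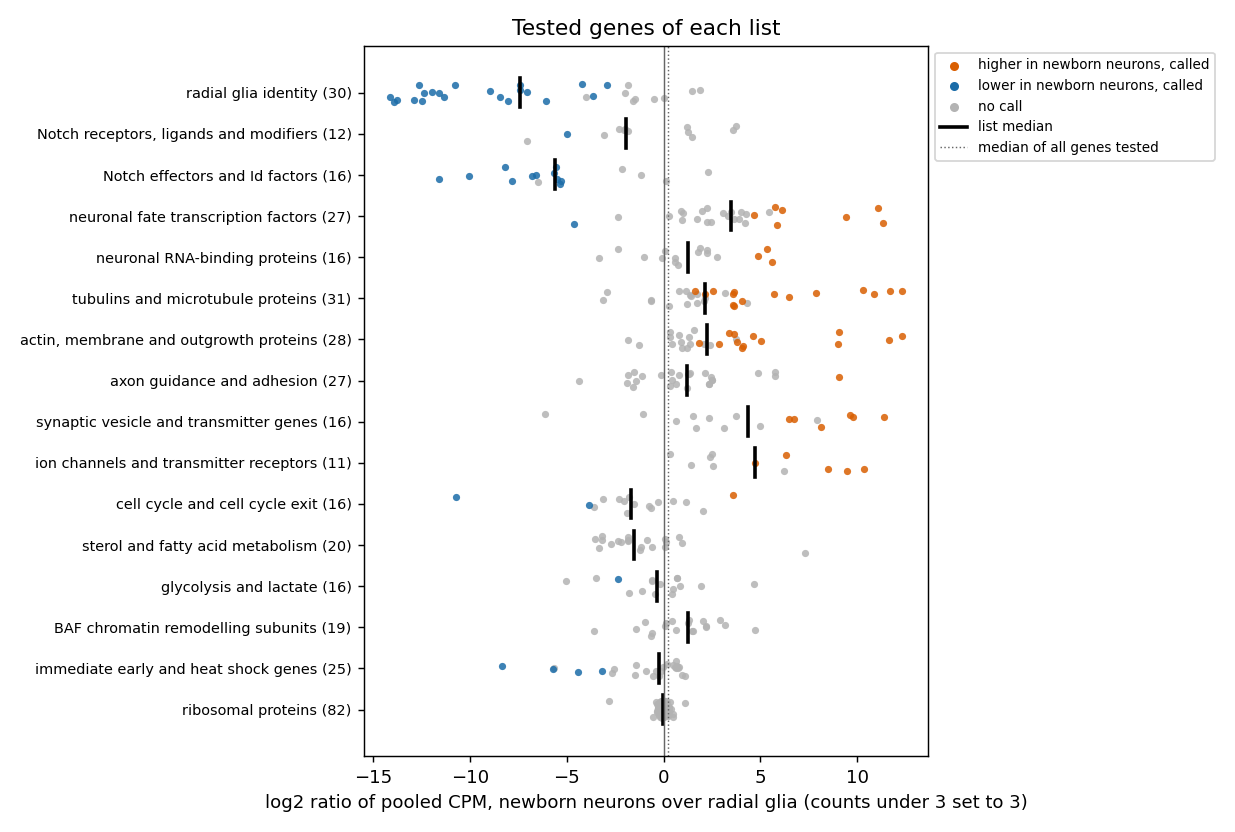
Tested genes of 16 lists (rows, number of tested genes in brackets), placed by the log2 ratio of pooled CPM of newborn neurons over radial glia with counts under 3 set to 3. Coloured points passed the test in edgeR, orange for higher and blue for lower in newborn neurons, black bars are list medians and the dotted line is the median of all genes tested, 0.24; list medians ran from -7.42 for radial glia identity to 4.70 for ion channels and transmitter receptors.

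The rule for the largest changes named 12 genes in each direction among 164 higher and 199 lower genes that passed, moved the same way in 6 of 6 fish and had a mean of at least 20 CPM in the higher group. Several of these were on no list. *ISLR* had 738, 1238 and 2015 CPM in newborn neurons and 3 reads in radial glia (adjusted p = 1.35e-09, edgeR). *SEPTIN3*, a septin of neurons, had 398, 602 and 746 CPM in newborn neurons and 0 CPM in 5 fish and 28.6 CPM in the other in radial glia (adjusted p = 4.65e-06, edgeR). *si:ch211-10a23.2* and *zgc:172282* had no read in radial glia and were at least 2278-fold (1455-fold without fish 4) and at least 1230-fold higher (adjusted p = 1.17e-05 and 0.00155, edgeR).

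On the other side, *EFHD1*, a calcium-binding protein of mitochondria, had no read in newborn neurons and 392, 784 and 1781 CPM in radial glia, which made it at least 6353-fold lower (3906-fold without fish 5, adjusted p = 1.65e-08, edgeR). *BOC*, a co-receptor of Hedgehog ligands, had no read in newborn neurons and 337, 488 and 948 CPM in radial glia (at least 3595-fold lower, and 2244-fold without fish 3, adjusted p = 4.12e-07, edgeR). *METRN*, the secreted factor meteorin, *SWAP70* and *hspb15* likewise had no read in newborn neurons and were at least 3710-fold, 2969-fold and 2614-fold lower (adjusted p = 3.26e-06, 3.97e-06 and 5.81e-06, edgeR). Single fish carried part of this, since *hspb15* had 1739 CPM in the radial glia of fish 3 and 49.7 to 441 CPM in the others. Its limit was 1006-fold without fish 3, and that of *METRN* 2030-fold without fish 4. *ZFP36L2*, which destabilises mRNAs, and the transcription factor *CEBPD* had 1 read each in newborn neurons, against 225, 702 and 1212 CPM and 423, 684 and 946 CPM in radial glia (adjusted p = 1.02e-08 and 1.71e-08, edgeR).

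The other cells of the NBN gate were not part of the comparison and are given as a description. They numbered 95, of which 34 were under both limits, 49 were past the *EBF3* limit alone and 12 were past both. *ppp1r14ba* was read in 63 of 69 newborn neurons and 42 of these 95 cells, *cnp* in 56 and 20, *CD99L2* in 69 and 45, and *NEUROD1* in 42 and 17. *SNAP25* was read in 42 of the newborn neurons and 87 of the others, and *TBR1* in 37 and 59. After thinning to 20000 reads, *SNAP25* was read in 37 and 83 cells and *ppp1r14ba* in 62 and 38. *VIM* was read in 49 newborn neurons and 17 of the others. A list of 16 genes of the *EBF3* cells and of mature neurons had 1356 to 3060 CPM in the sums of newborn neurons and 139 to 413 CPM in those of radial glia, and 3 of its 8 tested genes were higher in edgeR, namely *TBR1*, *SNAP25* and *sprn2*, the last of which (adjusted p = 0.0455) did not pass when any of the 6 fish was left out (adjusted p = 0.0592 to 0.0984). These 3 were 37.5% of the tested genes of the list, against 6.49% of all genes. The single-cell counts given here come from cells split by *tubb5* and *EBF3*, and no test was made between the newborn neurons and the others.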

How the data were processed

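The authors aligned single-end SMART-seq2 reads to the zebrafish genome GRCz10 with GSNAP (2017-08-15), assigned those with 1 alignment to Ensembl genes by featureCounts 1.5.3 and deposited the raw count of 32266 genes in 370 cells, without normalization, per the labels and the methods. Counts are reads and not molecules, so limits from 3 reads cover counting error only. Symbols were found for 26433 genes, and copies often share a human symbol. In 22 lists, 35 gene names were not found, and the Delta ligands *dla* and *dld* were matched as *DLL1* after values were seen.

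Cells passed with a log10 of reads above 4.5, between 2.7 and 3.9 for the log10 of the number of genes holding over 1 read, under 50% of reads in the 50 most abundant genes and under 20% on 13 mitochondrial genes. The share of mapped reads removed no further cell, no limit was set on spike-in reads, and doublets were not called. Reads were summed per fish and group. The fish is the number after the hyphen in the sample name, batch bfx811 was taken as 1 fish, and the label for the fish, whose 4 values follow the plates, served as an alternative block. Sums were compared with edgeR 4.0.16 (TMM, filterByExpr, glmQLFit and glmQLFTest, Benjamini-Hochberg adjustment over all genes tested), with DESeq2 1.42.0 in R 4.3.3 as an alternative. *tubb5* and *EBF3* stayed in the library sizes and out of the tests. filterByExpr asks for reads in about as many sums as a group has, so a gene high in 1 group could pass through that group alone, and counts over a list's tested genes are a description. Both groups came from the same animals, so the fish pairs them, although the deviations of the sums of a fish from the group means correlated at only -0.0521 to 0.0564. Python 3.11.15 with numpy 2.4.6, pandas 2.3.3 and matplotlib 3.10.9 made the tables and figures.

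Genes were named by a rule: the genes of the cell choice and of the sort, tested genes of the lists, and the 12 largest changes in each direction among genes with an adjusted p under 0.05, at least 20 CPM in the higher group and the same direction in every fish. The members and the lists were chosen with earlier results of these data known. Alternatives, 2 of them chosen after seeing the data, were other tools, scaling, filters, blocks, depths, cell rules and fish. A few genes counted in the lists are not reported here by name.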

Additional observations from a re-analysis of the deposited data

Results flagged for a closer look

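In 24 of 124 genes examined, the difference between newborn neurons and radial glia in 1 fish, as log2(CPM + 1) of the sums, lay far from that in the other fish by Dixon's criterion, which chance alone meets in about 1 in 20 groups. Fish bfx811, with 4 newborn neurons, was the distant one for *GLUL* ENSDARG00000099776 (-12.79, others -5.42 to -1.53), *dll4* (-5.50, others 3.13 to 7.88), *NEUROD1* (3.25, others 7.75 to 10.16), *TBR1* (-5.39, others 4.97 to 9.75), *MSI1* (-8.20, others -2.87 to -1.80), *tuba2* (4.33, others 8.95 to 10.67), *DCLK1* (4.69, others 8.08 to 8.98), *ppp1r14ba* (6.0, others 9.87 to 10.65) and *SWAP70* (-7.56, others -9.05 to -8.59).

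Fish 2 was distant for *S100B* (-3.63, others -10.11 to -9.52), *HES1* (-6.37, others -12.03 to -10.59), *tuba1c* (2.75, others 4.12 to 4.77), *GNG3* (8.35, others 9.54 to 10.23), *atp1b3a* (3.01, others 7.27 to 7.69) and *si:ch211-10a23.2* (7.37, others 8.51 to 9.16). Fish 1 was distant for *fgfbp3* (-5.18, others -12.17 to -10.17), *MAP1B* (1.62, others 8.24 to 9.17) and *SEPTIN3* (4.51, others 8.64 to 9.54), and fish 3 for *SOX4* (9.66, others 1.15 to 2.72). Fish 4 was distant for *MDK* ENSDARG00000036036 (-8.89, others -10.63 to -10.04), *celf5a* (2.71, others 5.83 to 7.68) and *GRIA2* ENSDARG00000052765 (3.42, others 6.84 to 8.31), and fish 5 for *STMN4* ENSDARG00000030106 (7.20, others 10.24 to 11.01) and *sncb* (4.69, others 8.39 to 9.97).

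Outside the comparison, 8 of 27 MN gate cells that passed the filters met the *tubb5* and *EBF3* limits of the newborn neurons, as did 7 of 73 RG gate cells.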

How the results depend on the processing

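The counts of 388 genes in all, 174 higher and 214 lower stayed within 1.5 times under most settings. The exceptions were DESeq2 (1774 in all, 1050 higher and 724 lower), all 164 cells of the NBN gate in place of those chosen by *tubb5* and *EBF3* (1034 in all and 836 higher, with 198 lower) and, for the higher genes, the fit without fish 3 (113). Leaving out each fish in turn gave 296 to 388 genes in all, 113 to 181 higher and 170 to 257 lower. Without the replicate block, that is without the pairing by fish, 339 genes passed, 158 higher and 181 lower, and 16 of the 105 called genes examined singly did not pass. With both other scalings, DESeq2, the filter on mapped reads and the *EBF3* limit of 250 CPM, each of these 105 passed. With the label for the fish as the block 92 passed, and after thinning to 20000 reads the 92 that could be tested passed. Signs changed for *ALDOC* with all NBN gate cells (0.28 on the log2 scale) and for *hsp70l* (-0.13 with the label for the fish as the block, and -0.13 to 0.57 leaving out a fish), and the cause was not tested. Chosen after seeing the data, the settings without RG gate cells at or above 500 CPM of *tubb5* and without those at or above 2000 CPM of microglia genes gave 385 and 363 genes. Depth limits the genes with few reads, since a gene high in newborn neurons alone was tested only with enough reads in the 4 cells of fish bfx811.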
